A study of Mus musculus with 60 samples.

Results

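The matrix metalloproteinases (Mmp) are the 10 genes Mmp2, Mmp3, Mmp8, Mmp9, Mmp10, Mmp11, Mmp13, Mmp14, Mmp19 and Mmp23, taken as the rows of both count tables whose Ensembl gene identifier maps to one of these symbols. Each symbol matched 1 of the 56980 gene identifiers listed in each table. The genes were followed over 60 RNA sequencing libraries of mouse fibroblasts, 36 from reprogramming and 24 from the inhibitor table, with 3 libraries in each of 20 groups.

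Reprogramming was studied in tail tip fibroblasts that carry a doxycycline-inducible OKSM cassette (Oct4, Klf4, Sox2 and Myc) in the Col1a1 locus and the rtTA activator in the ROSA26 locus. D/KO cells (4FJ_ERCC1_(d/-), from a male mouse of 8 weeks) hold 1 truncated Ercc1 allele over a null allele, and WT cells (4FJ_(+/-)_OCT4-GFP) came from a female mouse of 22 weeks. Libraries were made on days 0, 2 and 4 of treatment with 2 µg/ml doxycycline, in the absence or presence of VC, the mixture of ascorbic acid (50 µg/ml) and the GSK3 inhibitor CHIR99021 (3 µM). For the inhibitors, fibroblasts of a female ERCC1_(d/-) mouse of 4 weeks were left as controls or given Repsox, Vactosertib or A83-01, which inhibit the TGFb type I receptor ALK5, or DMH-1, which inhibits the BMP type I receptor ALK2. Vactosertib is described in the study as acting on ALK2 as well as ALK5, and is counted here among the ALK5 inhibitors. By the study's description the treatment lasted 3 days, at 0.1 µM for Repsox and Vactosertib and 1 µM for A83-01 and DMH-1. The same table holds tail tip and skin control fibroblasts from ERCC1_(+/+)_WT females of 14 weeks and 3 WT 4F libraries (4FJ_(+/-)_OCT4-GFP, female, 22 weeks) whose treatment is labelled TGFB, a label that is not explained. All cells were grown in 3% oxygen and passaged at most 3 times. Each line is given by 1 genotype and age, so genotype, age and line cannot be told apart in a comparison of D/KO with WT cells, nor can sex in reprogramming. Nothing says that the 3 libraries of a group came from separate cultures, so p-values measure the spread between these libraries, which may be technical.

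Library totals ran from 16538374 to 18484951 counts in reprogramming and from 17102639 to 30599138 in the inhibitor table. Every reprogramming library lay nearest to its own group, as did 21 of 24 inhibitor libraries, the exceptions being the 3 Repsox libraries, which lay nearest to Vactosertib. Replicate 1 of WT skin and replicate 2 of Repsox stood apart from their groups, and their values are given where they touch a result. The fibroblast markers Col1a1, Col1a2, Col3a1, Pdgfra, Pdgfrb, Thy1, Dcn and Lum were above 1 CPM (the unit used throughout, a gene's count scaled to a common library size) in every group. Ercc1 was 14.2 ± 3.87 CPM (mean ± s.d., n = 3) in D/KO libraries of day 0 and 20.6 ± 2.23 in those of WT (log2 difference -0.54, edgeR adjusted p = 0.00833). In the inhibitor table it was 20.6 ± 0.275 CPM in control D/KO and 18 ± 4.3 in control WT cells (edgeR adjusted p = 0.317), so the gene-level count did not separate the genotypes there.

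Metalloproteinases of this family are zinc endopeptidases that are made as inactive precursors and cut collagens, gelatins, proteoglycans and other proteins outside or at the surface of the cell. Fibroblasts are a main source of them in connective tissue, their transcription responds to growth factors, cytokines and AP-1, and their activity is held back by the tissue inhibitors Timp1 to Timp4. Several are counted among the secreted proteins of senescent cells. The members fall into the collagenases Mmp8 and Mmp13, the gelatinases Mmp2 and Mmp9, the stromelysins Mmp3, Mmp10 and Mmp11, the membrane-bound Mmp14 (MT1-MMP) and Mmp23, and Mmp19.

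On GRCm39, the build of the files, Mmp13 (chr9:7272514-7283331), Mmp3 (chr9:7445822-7455975), Mmp10 (chr9:7502353-7510241) and Mmp8 (chr9:7558457-7568486) lie on the plus strand of a single cluster. Mmp2 is at chr8:93553919-93580048, Mmp9 at chr2:164782700-164797770, Mmp14 at chr14:54669069-54682821 and Mmp19 at chr10:128626779-128636693, all on the plus strand. Mmp11 (chr10:75759056-75772330) and Mmp23 (chr4:155735112-155737841) are on the minus strand. Counting by strand is not stated, and exons overlap genes of the other strand over 859 bases of Mmp2 (Gm45472), 155 bases of Mmp11 (Chchd10) and 1001 bases of Mmp19 (Gm47093 and Tmem198b), where reads of the partners cannot be told apart.

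The sequences just before the start of Mmp13, Mmp3 and Mmp10 are shown because these are the clustered members with the deepest falls under ALK5 inhibition. They are the 130 bases before the RefSeq start, 5′ to 3′ on the plus strand, from the promoter table of GRCm38.p6, and each was matched once in GRCm39, at chr9:7272384-7272513, chr9:7445692-7445821 and chr9:7502213-7502342. Capitals mark the AP-1 motif TGANTCA.
Mmp13: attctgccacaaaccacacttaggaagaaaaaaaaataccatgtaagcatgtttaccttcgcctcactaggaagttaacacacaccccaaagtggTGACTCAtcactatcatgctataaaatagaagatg
Mmp3: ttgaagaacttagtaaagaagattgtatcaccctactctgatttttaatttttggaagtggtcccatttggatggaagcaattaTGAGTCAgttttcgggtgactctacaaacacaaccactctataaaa
Mmp10: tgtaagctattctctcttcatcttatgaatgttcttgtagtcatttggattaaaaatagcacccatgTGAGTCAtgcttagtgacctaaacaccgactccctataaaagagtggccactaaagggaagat

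The motif ends 29 bases before the start of Mmp13, 40 before that of Mmp3 and 57 before that of Mmp10, counting the base next to the start as 1. In the table, 7 of the 10 members had an entry (Mmp2, Mmp9 and Mmp19 did not), and the 250 bases before the start held TGANTCA, read on both strands, in these 3 genes and not in Mmp8, Mmp11, Mmp14 or Mmp23. Of all 32851 promoters of the same length, 6.75% held it. The RUNX motif ACCACA, present in 14% of all promoters, was found in Mmp13, Mmp14 and 1 of 2 entries for Mmp23, and the TCF/LEF motif CTTTGAT, present in 3.21%, in none. A match describes letters and is not a measured binding site.

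Per kilobase of exon, Mmp2 (gelatinase A) had the highest mean of the members in 19 of the 20 groups, the exception being WT skin, where Mmp14 came first. It stood at 223 ± 8.84 CPM per kb in D/KO cells at day 0 and 273 ± 13.7 in WT cells (mean ± s.d., n = 3). Mmp14, the membrane protease that activates the Mmp2 precursor, came next with 135 ± 18.4 and 181 ± 0.116, and the 3 libraries of Mmp2 and Mmp14 did not overlap. In D/KO cells at day 0, Mmp3 (54.8 ± 26.9), Mmp23 (44.1 ± 1.47), Mmp11 (33.0 ± 9.52), Mmp13 (29.0 ± 5.68) and Mmp19 (27.0 ± 1.83) followed in CPM per kb, each overlapping its neighbour in this order. Mmp9 (0.77 ± 0.176) and Mmp10 (0.36 ± 0.245) overlapped each other near the bottom. Mmp2 and Mmp14 together made up 61.4% to 69.0% of the summed CPM per kb of the 10 members in these 3 libraries. Mmp8, the neutrophil collagenase, had 0 to 14 counts a library and did not pass the expression filter in any fit, so 9 of 10 members were tested.

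The first comparison asks how the members change as reprogramming starts, with each day set against its own day 0, that is, day 0 with VC for cells given VC. Fewer members were called higher than lower in all 8 such comparisons, and those called lower most often were Mmp19 (8 of 8), Mmp23 (7), Mmp14 (6) and Mmp2 (6). A gene is called where edgeR's quasi-likelihood test gives a Benjamini-Hochberg adjusted p under 0.05 over all genes tested. In D/KO cells, 0 members were higher and 5 lower at day 2, where 14.3% of the 15832 genes tested were higher and 13.2% lower, and 0 and 6 at day 4 (18.3% and 18.7% of all genes). With VC, 0 were higher and 8 lower at day 2 (23.8% and 23.6%) and 1 and 7 at day 4 (27.9% and 26.2%). In WT cells the counts were 0 and 1 at day 2 (6.26% and 4.3%), 0 and 3 at day 4 (11.7% and 12.8%), 0 and 6 at day 2 with VC (13.8% and 13.7%) and 0 and 7 at day 4 with VC (22.7% and 22%). The median log2 fold change of the 9 tested members was -0.81 for D/KO cells at day 4, -1.22 with VC, -0.36 at WT day 4 and -0.9999 at WT day 4 with VC, where the median of all genes lay between -0.01 and 0.03. Groups at days 2 and 4 of an arm share the same day 0 libraries. VC alone moved several members at day 0, and the size of a change with VC depended on its baseline. Against day 0 without VC, D/KO cells at day 4 with VC gave log2 fold changes of -2.04 for Mmp23, -1.79 for Mmp19 and -0.78 for Mmp14, smaller falls than against day 0 with VC, and of -2.31 for Mmp11 and -1.08 for Mmp13, larger ones. WT cells at day 4 with VC gave -1.04 for Mmp23 and -0.89 for Mmp19, again smaller, and -3.13 for Mmp9 and -1.71 for Mmp13, again larger. Each of these was called with either baseline, and calls that changed are given with the member.

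**Figure D1:**
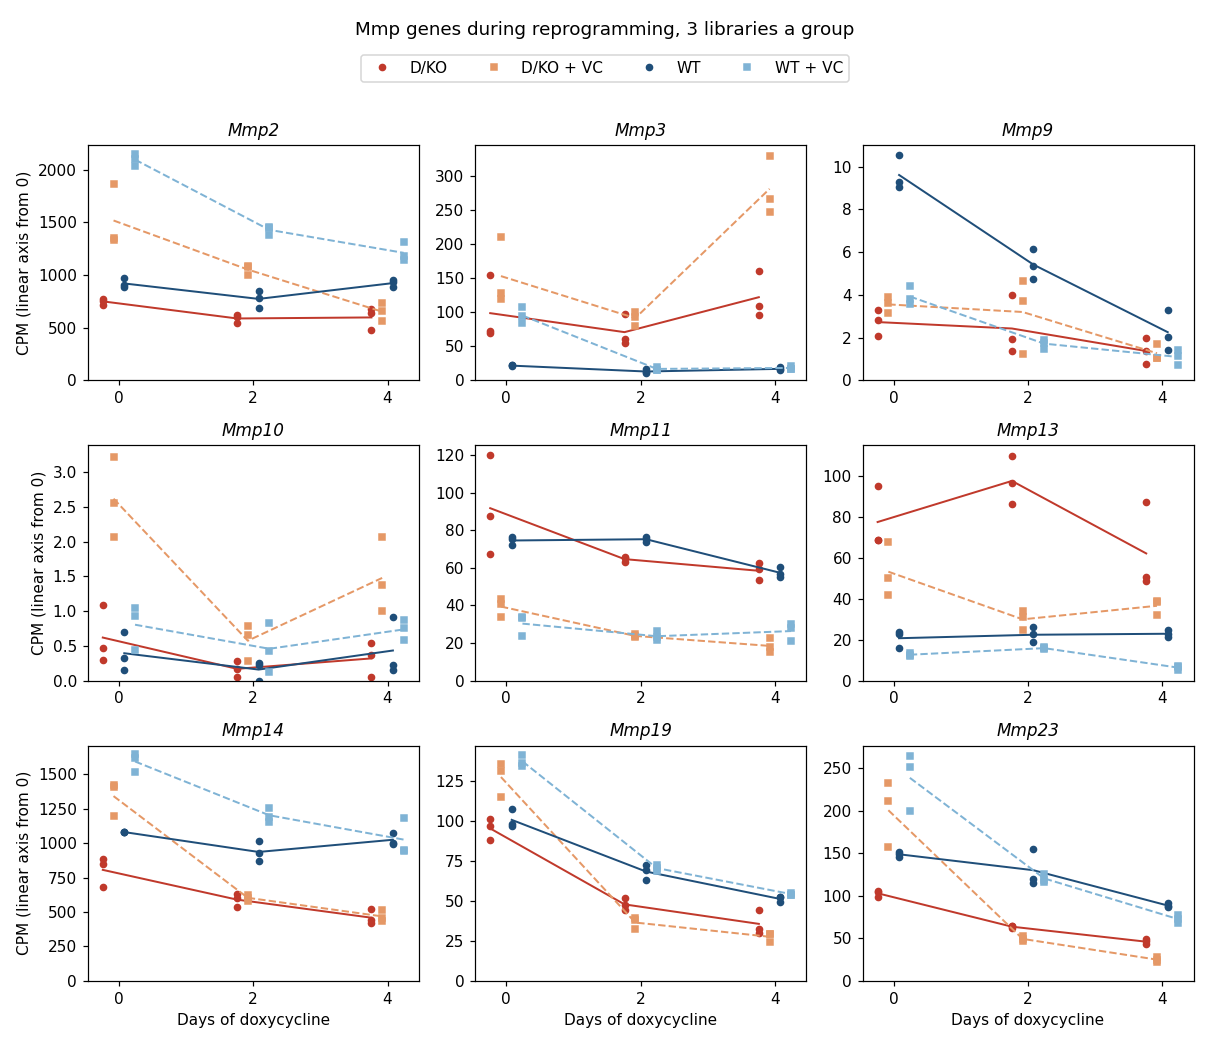
Level of the 9 tested Mmp genes in CPM on linear axes from 0 (vertical) against days of doxycycline (horizontal) in D/KO and WT cells with or without VC, 1 point a library and lines through the means of 3. Mmp19 and Mmp23 go down in each arm, while Mmp3 in D/KO cells with VC stands at 248 to 330 CPM on day 4.

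Mmp23, a membrane-anchored protease of which little is known in fibroblasts, gave the deepest fall against the day 0 of its own arm. Against day 0 without VC, Mmp9 at WT day 4 with VC (-3.13) fell further. So did Mmp11 at D/KO day 4 with VC (-2.31, beside -2.04 for Mmp23). The levels of Mmp23 in D/KO cells with VC were 212, 233 and 158 CPM at day 0, 46.5, 52.5 and 49.1 at day 2 and 22.3, 25.0 and 27.8 at day 4. The 3 times did not overlap. Day 2 gave a log2 fold change of -2.02 ± 0.12 (s.e., edgeR adjusted p = 2.34e-16) and day 4 one of -3.00 ± 0.12 (edgeR adjusted p = 5.55e-21), an 8.03-fold fall. Without VC, D/KO cells had 104, 99.2 and 106 CPM at day 0 and 46.4, 48.8 and 43.2 at day 4 (log2 fold change -1.16, edgeR adjusted p = 2.73e-10). In WT cells it went from 145, 152 and 150 CPM to 88.1, 86.5 and 91.4 at day 4 (log2 fold change -0.75, edgeR adjusted p = 4.47e-06), and with VC from 265, 200 and 252 to 72.6, 77.2 and 67.7 (log2 fold change -1.72, edgeR adjusted p = 1.44e-14).

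Mmp19, a secreted protease of basement membrane proteins, was called lower in all 8 comparisons. D/KO cells with VC held 136, 131 and 115 CPM at day 0, 32.1, 37.9 and 39.4 at day 2 and 29.3, 24 and 29.4 at day 4, with log2 fold changes of -1.80 and -2.21 (edgeR adjusted p = 7.83e-16 and 2.1e-18). The day 0 libraries stood apart from both later times. Without VC, on the log2 scale, it fell by 0.99 at day 2 and by 1.42 at day 4 (edgeR adjusted p = 3.67e-09 and 4.15e-13). Mmp19 was also the member called in WT cells at day 2 without VC, where 98.2, 96.6 and 107 CPM became 69.5, 72.7 and 62.8 (log2 fold change -0.56, edgeR adjusted p = 0.000332). Without WT day 2 replicate 3 a further member, Mmp3, was called there (-0.91, edgeR adjusted p = 0.0493).

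Mmp14 had 852, 886 and 681 CPM in D/KO cells at day 0 and 440, 417 and 520 at day 4, with log2 fold change -0.81 (edgeR adjusted p = 8.63e-08). With VC it went from 1410, 1422 and 1195 CPM to 513, 436 and 457 (log2 fold change -1.52, edgeR adjusted p = 1.95e-14). The WT libraries at day 0, with 1080, 1081 and 1082 CPM, lay just above those at day 4, with 1078, 1000 and 998, and the difference did not pass the test (log2 fold change -0.08, edgeR adjusted p = 0.654). With VC, WT cells had 1620, 1648 and 1514 CPM at day 0 and 1185, 941 and 954 at day 4 (log2 fold change -0.63, edgeR adjusted p = 7.21e-06). Against day 0 without VC this WT difference was -0.07 and that at day 2 with VC 0.15 in place of -0.41, and neither was called (edgeR adjusted p = 0.616 and 0.263).

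Mmp2 moved less. D/KO cells had 718, 755 and 777 CPM at day 0, 602, 619 and 542 at day 2 and 674, 642 and 477 at day 4, with log2 fold changes of -0.35 and -0.33 (edgeR adjusted p = 0.0224 and 0.0259). Each of these calls was lost when day 0 replicate 2, day 0 replicate 3 or replicate 3 of the later day was left out (log2 -0.35 to -0.29 at day 2 and -0.32 to -0.19 at day 4). With VC, D/KO cells had 1334, 1866 and 1356 CPM at day 0 and 661, 730 and 565 at day 4 (log2 fold change -1.22, edgeR adjusted p = 6.23e-11), and WT cells had 2107, 2032 and 2152 at day 0 and 1314, 1143 and 1177 at day 4 (log2 fold change -0.79, edgeR adjusted p = 1e-06). The direction depended on the baseline: against day 0 without VC, Mmp2 was higher by 0.49 at D/KO day 2 with VC, by 0.64 at WT day 2 with VC and by 0.40 at WT day 4 with VC in log2 units (edgeR adjusted p = 0.000778, 4.59e-05 and 0.00685), and at D/KO day 4 with VC it was -0.20 and not called (edgeR adjusted p = 0.152). The fibroblast markers, most of it the collagens, summed to 176400 to 242800 CPM in D/KO cells at day 0 with VC and 24290 to 24910 at day 4 with VC. Thy1 of that list went the other way, from 368 to 636 CPM. Between the same groups the skeletal muscle markers Myod1, Myog, Des and Acta1 summed to 42.3 to 58.3 and 3.7 to 5.41 CPM, with Myod1 and Myog at 0 in both, the chondrocyte and osteoblast markers (Acan, Col2a1, Sox9, Col10a1, Bglap and Sp7) to 18.6 to 27.1 and 9.31 to 9.57, and the endothelial markers Pecam1, Cdh5, Kdr and Tek to 180 to 217 and 378 to 509. Pecam1 went from 72.9 to 247 CPM and Tek from 8.92 to 112, while Cdh5 went from 103 to 70.8 and Kdr from 17.2 to 13.2. In WT cells with VC the fibroblast markers summed to 148400 to 162500 and 51910 to 61380 CPM, muscle to 40.3 to 49.1 and 9.88 to 13.3, chondrocyte and osteoblast to 21.8 to 29.1 and 16.0 to 18.8, and endothelial to 4.67 to 7.08 and 98.1 to 116, most of it Tek. Between these WT groups Thy1 went from 567 to 1000 CPM and Dcn from 1270 to 2550, against the fibroblast sum. Without VC, D/KO cells at days 0 and 4 had fibroblast sums of 70310 to 110900 and 28550 to 30300 CPM. Their endothelial sums were 512 to 599 and 302 to 327, and those of chondrocyte and osteoblast markers 44.3 to 47.8 and 10.1 to 17.8. Of these lists Thy1 went from 635 to 754 CPM and Tek from 30.8 to 116, the other way. In bulk libraries fewer cells of a type and less RNA per cell cannot be told apart, and the part of the marker changes in the changes of the members was not tested.

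Mmp11 (stromelysin-3), which is activated by furin before it leaves the cell, had 120, 87.7 and 67.5 CPM in D/KO cells at day 0 and 59.3, 53.2 and 62.6 at day 4 (log2 fold change -0.65, edgeR adjusted p = 0.000458). The groups did not overlap, but the day 0 libraries were spread widely, and at day 2 the fall of 0.50 was not called without day 0 replicate 1 (log2 -0.26, edgeR adjusted p = 0.193). With VC the levels were lower throughout, 43.4, 40.9 and 33.8 CPM at day 0 and 15.3, 17.6 and 22.4 at day 4 (log2 fold change -1.09, edgeR adjusted p = 2.21e-07). In WT cells none of the 4 comparisons passed the test, with log2 fold changes between -0.38 and 0.01. Day 2 with VC was called without WT day 0 with VC replicate 3 (-0.50, edgeR adjusted p = 0.0218), and against day 0 without VC both days with VC were called lower (-1.66 and -1.50, edgeR adjusted p = 5.38e-11 and 3.29e-10).

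Mmp3 (stromelysin-1), a protease of broad specificity that also activates other family members, was the member called higher. D/KO cells with VC held 129, 120 and 211 CPM at day 0, 80.1, 93.1 and 101 at day 2 and 266, 248 and 330 at day 4. All day 4 libraries lay above all earlier ones. Day 2 gave a log2 fold change of -0.74 (edgeR adjusted p = 0.00779, but -0.44 and edgeR adjusted p = 0.137 without day 0 with VC replicate 3) and day 4 one of 0.88 ± 0.23 (edgeR adjusted p = 0.00146). In WT cells with VC it fell from a day 0 level that VC had itself raised, from 108, 94.4 and 83.8 CPM at day 0 to 19.99, 14.6 and 15.8 at day 2 and 16.6, 16.9 and 21.2 at day 4 (log2 fold changes -2.50 and -2.38, edgeR adjusted p = 6.04e-10 and 7.51e-10). Against WT day 0 without VC (22.5, 21.9 and 20.5 CPM) the differences were -0.37 and -0.24 and neither was called (edgeR adjusted p = 0.267 and 0.468), while D/KO cells gave -0.11 at day 2, not called, and 1.51 at day 4 (edgeR adjusted p = 0.72 and 1.15e-06). Without VC, D/KO cells had 72.5, 69.1 and 155 CPM at day 0 and 96.5, 109 and 161 at day 4, which overlapped (log2 fold change 0.31, edgeR adjusted p = 0.321). Without day 0 replicate 3 the difference was 0.79 and was called (edgeR adjusted p = 0.00474). At day 2 of that arm the log2 fold change was -0.48 and not called (edgeR adjusted p = 0.127). It was called lower without day 0 replicate 1, day 0 replicate 2 or day 2 replicate 3 (log2 -0.77 to -0.66), and was near 0 without day 0 replicate 3.
At D/KO day 4 with VC, where Mmp3 was highest, the keratinocyte and epithelial markers Krt5, Krt14, Krt10, Epcam and Cdh1 summed to 338 to 467 CPM, against 3.77 to 4.66 at day 0 with VC. Krt14 made up most of it (367 CPM on average), Cdh1 reached 44.3 CPM, and Krt5 and Epcam stayed at 0.504 and 0.575. Their part in the Mmp3 level was not tested.

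Mmp13 (collagenase-3), the main fibrillar collagenase of the mouse, had 68.9, 68.6 and 95.1 CPM in D/KO cells at day 0, 96.7, 86.3 and 110 at day 2 and 50.9, 48.5 and 87.1 at day 4, and passed the test at neither day. Without day 4 replicate 3 the difference at day 4 was -0.64 and was called (edgeR adjusted p = 0.00358). With VC it fell by 0.83 at day 2 (edgeR adjusted p = 0.000305) and by 0.54 at day 4 (edgeR adjusted p = 0.0118), the latter call being lost without day 0 with VC replicate 3 or day 4 with VC replicate 2 (log2 -0.33 and -0.45). In WT cells with VC, 12.3, 13.6 and 12.1 CPM at day 0 became 6.51, 5.43 and 7.05 at day 4 (log2 fold change -0.9999, edgeR adjusted p = 0.000225). Mmp10 (stromelysin-2) stayed between 0 and 3.23 CPM in the reprogramming table and was called once, at D/KO day 2 with VC, where 2.07, 2.56 and 3.23 CPM became 0.289, 0.651 and 0.783 (log2 fold change -2.17, edgeR adjusted p = 0.00575). Against day 0 without VC it was -0.09 and not called (edgeR adjusted p = 0.928).

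Mmp9 (gelatinase B), which is best known from macrophages and neutrophils, had 9.28, 9.02 and 10.5 CPM in WT cells at day 0, 4.74, 6.17 and 5.34 at day 2 and 1.43, 3.29 and 2.04 at day 4. The times did not overlap, and the log2 fold change at day 4 was -2.09 (edgeR adjusted p = 1.66e-05). It was also called lower at WT day 2 with VC (-1.19, lost without WT day 0 with VC replicate 1 or WT day 2 with VC replicate 2, at -1.09 for both) and day 4 with VC (-1.84), and at D/KO day 4 with VC (-1.48, edgeR adjusted p = 0.00145). At D/KO day 4 it was -0.99 (edgeR adjusted p = 0.0413), and that call was lost without day 0 replicate 2 or 3 or day 4 replicate 1 or 2 (log2 -0.99 to -0.70). The macrophage markers Ptprc, Cd68, Csf1r, Adgre1, Lyz2 and Itgam summed to 76.7 to 147.6 CPM in WT cells at day 0, 54.9 to 68.6 at day 4 and 42.2 to 45.2 at day 4 with VC, and to 12.8 to 13.5 CPM in D/KO cells at day 0. Lyz2 gave most of this (76.2 CPM in WT cells at day 0) and Ptprc 1.39 CPM. Their part in the Mmp9 level was not tested. Mmp8 was seen most in day 0 with VC, with 14, 1 and 5 counts in D/KO and 6, 9 and 8 in WT libraries, and had 0 to 3 counts in every other reprogramming library. The 5 neutrophil markers S100a8, S100a9, Elane, Mpo and Ly6g summed to 0.453 to 0.904 CPM in D/KO and 0.184 to 0.569 in WT cells at day 0 with VC, against 0.176 to 0.412 and 0.161 to 0.255 without it. S100a8 was the highest of them, at 0.444 and 0.171 CPM with VC, and S100a9 and Ly6g were at 0, and their part in the Mmp8 counts was not tested.

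**Figure D2:**
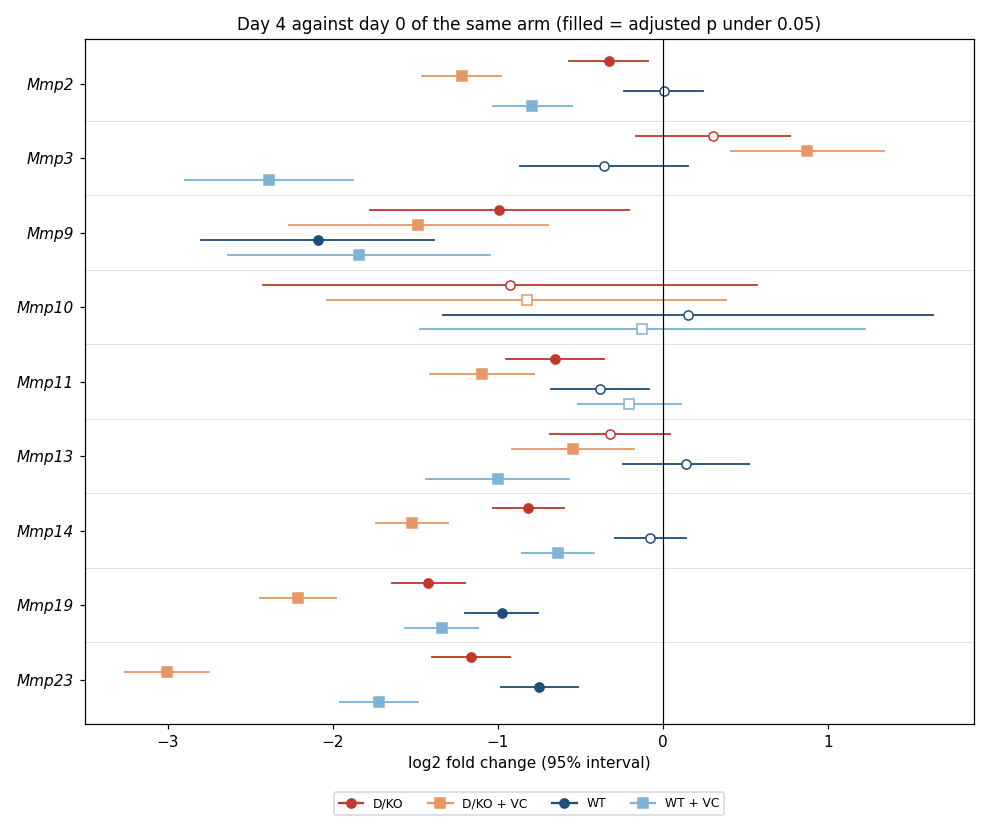
Log2 fold change (horizontal, with 95% interval) of each Mmp gene at day 4 against day 0 of the same arm, for D/KO and WT cells with or without VC; filled symbols passed the test. Mmp23 reaches -3.00 in D/KO cells with VC, and Mmp3 lies at 0.88 in D/KO and at -2.38 in WT cells with VC.

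Whether D/KO cells changed by more than WT cells was tested by subtracting the WT log2 fold change from that of D/KO cells. At day 2 it called 0 of the 9 members higher and 0 lower (3.43% and 3.11% of all genes) in edgeR, with 3 members at an unadjusted p under 0.05 and 1 called by DESeq2. In edgeR 1 library left out was enough for a call, of Mmp11 without D/KO day 0 replicate 3 (-0.70) and of Mmp23 without WT day 2 replicate 1 or 3 (-0.59 and -0.56). At day 4 the counts were 0 and 2 (7.27% and 7.04%), at day 2 with VC 1 and 4 (6.86% and 7%) and at day 4 with VC 1 and 5 (13.9% and 15.5%). At day 4 with VC the D/KO change was lower than the WT change, with differences of -1.28 for Mmp23, -0.88 for Mmp14, -0.87 for Mmp19 and -0.89 for Mmp11 in log2 units (edgeR adjusted p = 2.08e-07, 2.35e-05, 4.17e-05 and 0.00191). Mmp2, at -0.43 (edgeR adjusted p = 0.0491), lost its call in 9 of 12 fits that left out 1 library (all but D/KO day 0 with VC replicates 1 and 3 and D/KO day 4 with VC replicate 2), with values between -0.47 and -0.25. For Mmp3 the D/KO change was higher by 3.26 ± 0.34 (edgeR adjusted p = 3.13e-09), or 9.58-fold. With day 0 without VC as the baseline of both lines, a choice made after seeing the data, this difference was 1.75 (edgeR adjusted p = 0.00019) and that at day 2 with VC 0.25 in place of 1.76 and not called (edgeR adjusted p = 0.664). At day 4 without VC, Mmp14 differed by -0.74 (edgeR adjusted p = 0.00056), and Mmp19 by -0.44 (edgeR adjusted p = 0.0463, lost in 9 of 12 such fits, all but those without replicate 3 of D/KO day 0, D/KO day 4 or WT day 0, with values between -0.48 and -0.34). For Mmp9 the differences ran from 0.36 to 1.10 and none passed the test. At day 2 with VC it was called without D/KO day 2 with VC replicate 1 (1.44, edgeR adjusted p = 0.0413), and against day 0 without VC it was called at day 2 with VC (2.71, edgeR adjusted p = 0.000151) and day 4 with VC (2.03, edgeR adjusted p = 0.00618).

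VC alone moved the members before any factor was induced. At day 0 it raised 6 and lowered 2 of the 9 members in D/KO cells (12.1% and 14% of all genes) and raised 5 and lowered 3 in WT cells (15.1% and 14.4%). Mmp2 rose from 718, 755 and 777 to 1334, 1866 and 1356 CPM in D/KO cells and from 972, 884 and 905 to 2107, 2032 and 2152 in WT cells, with log2 fold changes of 1.02 and 1.19 (edgeR adjusted p = 1.98e-08 and 7.36e-10). Mmp14 rose by 0.74 and 0.56, Mmp23 by 0.96 and 0.68 and Mmp19 by 0.42 and 0.45 in D/KO and WT cells, and the libraries with and without VC did not overlap for any of them.
Mmp3 showed its largest response to VC in WT cells, from 22.5, 21.9 and 20.5 to 108, 94.4 and 83.8 CPM (log2 fold change 2.14, edgeR adjusted p = 1.6e-08). In D/KO cells the rise of 0.63 overlapped the untreated libraries and was lost when day 0 replicate 1, day 0 replicate 2 or day 0 with VC replicate 3 was left out (log2 0.33 to 0.45). Mmp11 fell in both lines, with log2 fold changes of -1.22 in D/KO and -1.296 in WT cells (edgeR adjusted p = 5.68e-08 and 1.89e-08). Mmp13 fell by 0.54 in D/KO cells, a call lost without day 0 replicate 3 or day 0 with VC replicate 1 or 2 (log2 -0.50 to -0.37), and by 0.71 in WT cells (edgeR adjusted p = 0.00542). Mmp10 rose in D/KO cells from 1.1, 0.293 and 0.471 to 2.07, 2.56 and 3.23 CPM (log2 fold change 2.08, or 2.75 without day 0 replicate 1), and was not called without day 0 replicate 2 or 3 or day 0 with VC replicate 3 (log2 1.74 to 1.92). Mmp9 fell in WT cells, from 9.28, 9.02 and 10.5 to 4.42, 3.56 and 3.78 CPM (log2 fold change -1.29, edgeR adjusted p = 0.00307). The fibroblast markers summed to 70310 to 110900 CPM without and 176400 to 242800 with VC in D/KO cells, and to 46280 to 47700 and 148400 to 162500 in WT cells, most of it the collagens. The chondrocyte and osteoblast markers summed to 44.3 to 47.8 CPM without and 18.6 to 27.1 with VC in D/KO cells and to 36.3 to 49.2 and 21.8 to 29.1 in WT cells. The endothelial markers summed to 512 to 599 CPM without and 180 to 217 with VC in D/KO cells. The macrophage markers summed to 76.7 to 147.6 CPM without and 69.8 to 118.5 with VC in WT cells, which overlapped, and to 12.8 to 13.5 and 10.2 to 13.2 in D/KO cells. The part of these lists in the response to VC was not tested.

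**Figure D3:**
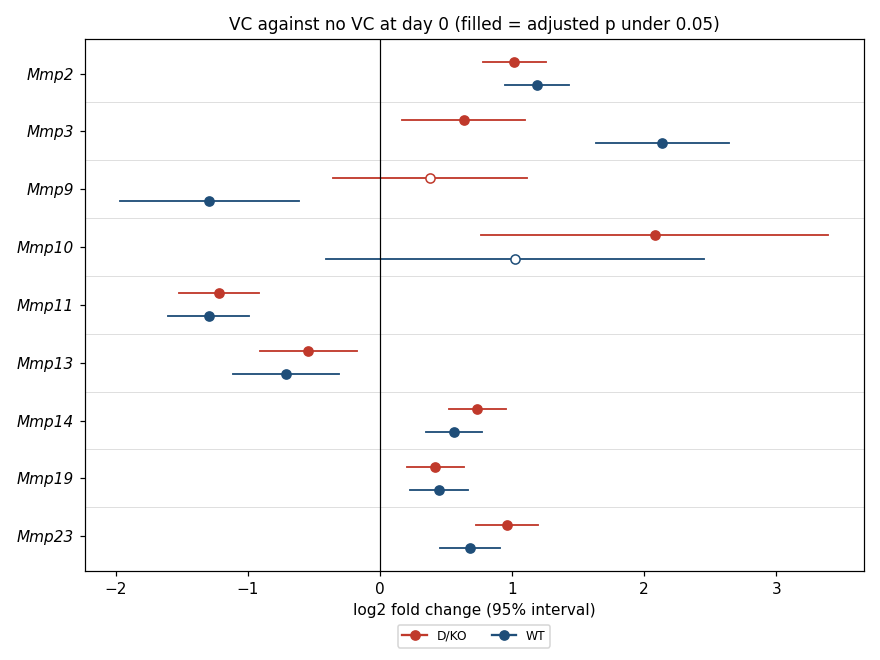
Log2 fold change (horizontal, with 95% interval) of each Mmp gene at day 0 with VC against day 0 without VC in D/KO and WT cells; filled symbols passed the test. Mmp2, Mmp14, Mmp19 and Mmp23 lie to the right of 0 and Mmp11 and Mmp13 to the left in both lines.

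At later days VC went with fewer rises. In D/KO cells 1 member was higher and 4 lower at day 2 (11.1% and 14.2% of all genes), and 2 and 4 at day 4 (16.8% and 17.7%). Without D/KO day 2 replicate 3 or D/KO day 2 with VC replicate 1, 3 in place of 5 members were called at day 2. In WT cells 2 were higher and 2 lower at day 2 (13.5% and 13%), and 1 and 2 at day 4 (12% and 10.4%). Mmp11 was lower with VC in all 6 comparisons, with log2 fold changes from -1.67 to -1.12. Mmp13 was lower in 5 of 6, with -1.85 at WT day 4 (edgeR adjusted p = 1.17e-08), where 21.1, 25.0 and 22.6 CPM stood against 6.51, 5.43 and 7.05, and -1.70 at D/KO day 2. Mmp2 stayed higher at day 2 in D/KO (0.84) and WT cells (0.89), while at D/KO day 4 the difference was 0.13 (edgeR adjusted p = 0.437). At WT day 4 Mmp2 was called higher by 0.39, a call lost without WT day 4 replicate 2 or WT day 4 with VC replicate 1 (log2 0.33 to 0.36). Mmp3 was higher by 1.204 at D/KO day 4 (edgeR adjusted p = 8.1e-05) and Mmp23 lower (-0.88, edgeR adjusted p = 3.35e-07). Mmp19 was lower in D/KO cells at day 2 (-0.39) and day 4 (-0.37), and Mmp14 higher in WT cells at day 2 (0.36). The Mmp19 calls were lost without D/KO day 2 replicate 3 or D/KO day 2 with VC replicate 1 (log2 -0.32 to -0.30), and without D/KO day 4 replicate 3 or D/KO day 4 with VC replicate 2 (log2 -0.28 to -0.18). That of Mmp14 was lost without WT day 2 replicate 3 (0.30). Mmp10 was higher at D/KO day 4 (2.18), a call lost without D/KO day 4 replicate 1 or D/KO day 4 with VC replicate 2 (log2 1.69 to 1.87), and Mmp9 lower at WT day 2 (-1.66, edgeR adjusted p = 0.000722). At D/KO day 4 the keratinocyte and epithelial markers, mostly Krt14, summed to 43.5 to 60.2 CPM without and 338 to 467 with VC, and skeletal muscle to 35.5 to 44.7 and 3.7 to 5.41. The endothelial markers summed to 423 to 490 CPM without and 186 to 211 with VC at D/KO day 2, and to 302 to 327 and 378 to 509 at D/KO day 4. The part of these lists in the differences was not tested.

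The other genes of the protease system were read from lists that were not picked by direction. Of all genes, 27.9% were higher and 26.2% lower at D/KO day 4 with VC, and 22.7% and 22% at WT day 4 with VC. Of 13 other Mmp genes, 8 were tested in the reprogramming table, and against day 0 with VC 2 rose and 2 fell at D/KO day 4 with VC (list median 0.36) and 1 rose and 3 fell at WT day 4 with VC (list median -0.88). Mmp28 (epilysin) rose from 4.75 ± 1.05 to 130 ± 22 CPM (mean ± s.d., n = 3; log2 fold change 4.78, edgeR adjusted p = 1.95e-23), and in WT cells with VC from 2.92 ± 0.883 to 126 ± 13.6. At day 0 without VC it was 14.8 CPM in D/KO and 8.72 in WT cells. Mmp16, a membrane-type protease, fell by 2.01 in D/KO and by 2.13 in WT cells on the log2 scale, from 24.4 and 25.7 CPM at day 0 with VC to 6.02 and 5.85, beside 13.2 and 16.5 at day 0 without VC. Of 5 inhibitors (Timp1 to Timp4 and Reck), 1 rose and 3 fell at D/KO day 4 with VC (list median -0.40) and 2 rose and 2 fell at WT day 4 with VC (list median -0.34). Timp3, which binds to the matrix, rose from 284 ± 20.9 to 1209 ± 264 CPM in D/KO cells (log2 fold change 2.09, edgeR adjusted p = 2.02e-12). Cells at day 0 without VC had 757 CPM in D/KO and 1301 in WT, and WT cells at day 4 with VC, at 720 CPM, lay above their day 0 with VC (433) and below day 0 without it. Timp2, the partner of Mmp14 in activating Mmp2, fell by 0.88 in D/KO cells and Timp1 by 0.58.
Of 10 tested genes of the plasminogen and convertase system that activates metalloproteinases, 1 rose and 6 fell at D/KO day 4 with VC (list median -1.36) and 1 rose and 5 fell at WT day 4 with VC (list median -0.55). Plat, the tissue plasminogen activator, fell from 480 ± 55.7 to 64.9 ± 13.6 CPM (log2 fold change -2.88, edgeR adjusted p = 6.4e-19), beside 266 CPM at day 0 without VC. The 7 Adamts genes listed, which hold the aggrecanases Adamts4 and Adamts5, all fell there (list median -2.14), with log2 fold changes of -3.36 for Adamts9, -3.18 for Adamts4 and -2.79 for Adamts5, and 5 of 7 fell at WT day 4 with VC (list median -0.71). Adamts9 had 17.7 CPM in D/KO cells at day 0 without VC, 55.7 at day 0 with VC and 5.42 at day 4 with VC. For Adamts4 these levels were 77.4, 131 and 14.4 CPM and for Adamts5 811, 303 and 43.9, so the size of each fall depends on the baseline. The median of all genes was 0.01 and 0.03 in these comparisons.

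In the inhibitor table, the question is which members respond to the 3 compounds that block ALK5, 1 of which (Vactosertib) is also directed at ALK2, and which to DMH-1. The collagenase Mmp13 was almost lost under each ALK5 inhibitor and Mmp3, Mmp10 and Mmp11 fell with it, whereas Mmp2, Mmp9 and Mmp23 were called under none of the 4 compounds. Repsox lowered 6 of the 9 tested members and raised 0 (11.8% of 15164 genes were lower and 13.4% higher), Vactosertib lowered 6 and raised 0 (10.3% and 11.8%), A83-01 lowered 5 and raised 0 (16.2% and 16.4%), and DMH-1 lowered 1 and raised 1 (3.79% and 5.96%). The members' median log2 fold changes were -0.82, -0.58, -0.54 and -0.23, and that of all genes 0.02 or less. All 4 compounds were compared with the same 3 control libraries.

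**Figure D4:**
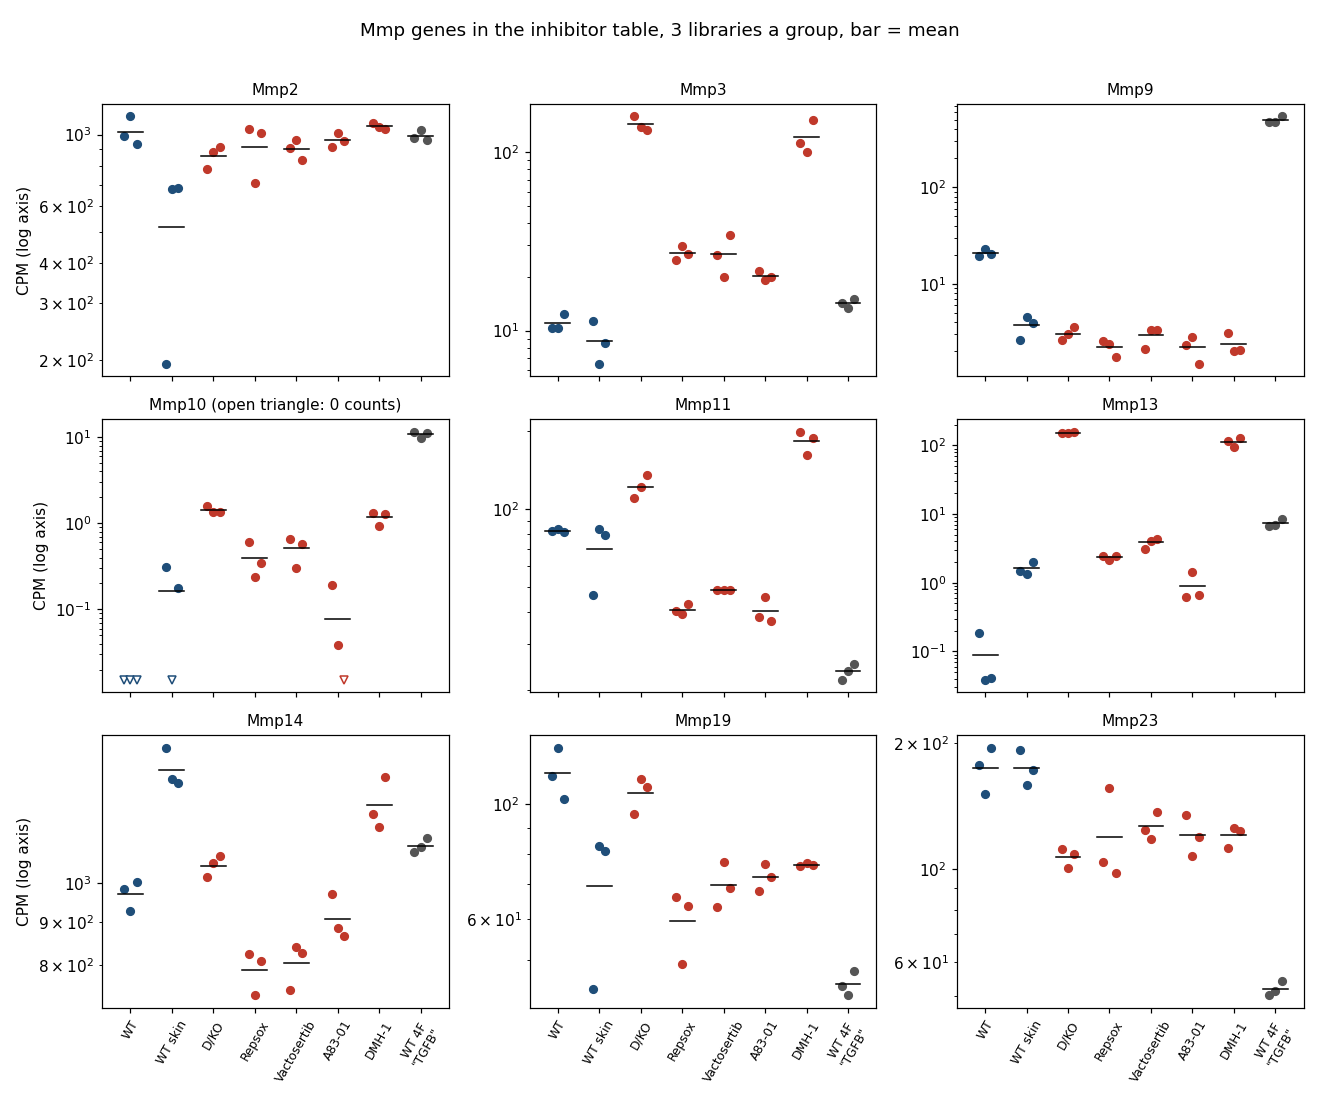
Level of the 9 tested Mmp genes in CPM on log axes (vertical) in the 8 groups of the inhibitor table (horizontal), 1 point a library, with a bar at the mean and open triangles for libraries with 0 counts. Mmp13 stands at 150 to 158 CPM in control D/KO cells and at 4.33 or below under Repsox, Vactosertib and A83-01, and Mmp9 at 473 to 549 in the WT 4F libraries labelled TGFB.

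Mmp13 had 151, 150 and 158 CPM in control D/KO cells. It had 2.44, 2.11 and 2.45 with Repsox, 3.14, 4.12 and 4.33 with Vactosertib, and 0.616, 1.41 and 0.665 with A83-01. None of these 9 libraries came near a control library. The falls were 65.5-fold, 39.3-fold and 170-fold (log2 fold changes -6.03 ± 0.23, -5.30 ± 0.22 and -7.41 ± 0.26, edgeR adjusted p = 1.68e-11, 6.49e-11 and 3.35e-12). With DMH-1 it had 116, 95.4 and 129 CPM, all below the controls, and the log2 fold change of -0.42 did not pass the edgeR test (adjusted p = 0.16) but did in DESeq2 (adjusted p = 0.0488) and in a fit of the 2 groups alone (edgeR adjusted p = 0.0238). The chondrocyte and osteoblast markers Acan, Col2a1, Sox9, Col10a1, Bglap and Sp7 summed to 29.3 to 35.2 CPM in control D/KO cells and to 10.0 to 21.0 with the 4 compounds, most of it Sox9 in the controls (29.4 CPM, and 6.51 with A83-01), while Acan and Bglap were at 0.0163 CPM and 0. Within that list Col10a1 was 3.02 CPM in the controls and 6.62, 7.21 and 10.9 with Repsox, Vactosertib and A83-01. The fibroblast markers summed to 72140 to 78370 CPM in the controls, 31890 to 45670 with the 3 ALK5 inhibitors and 62030 to 79970 with DMH-1, most of it the collagens, while Pdgfra was 492 CPM in the controls and 502 to 637 with the ALK5 inhibitors. The endothelial markers Pecam1, Cdh5, Kdr and Tek summed to 240 to 288 CPM in the controls, 106 to 143 with A83-01, 146 to 294 with Repsox and 211 to 276 with Vactosertib. The macrophage markers summed to 10.2 to 14.3 CPM in the controls and 14.1 to 29.0 with the ALK5 inhibitors, with Lyz2 at 7 and at 12 to 15.2 CPM and Adgre1 at 0.352 and at 1.8 to 2.35. The skeletal muscle markers Myod1, Myog, Des and Acta1 summed to 28.5 to 34.9 CPM in the controls and 11.5 to 24 with the 4 compounds, with Myod1 and Myog at 0 in the controls. The part of these lists in the Mmp levels was not tested.

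Mmp3 had 159, 138 and 132 CPM in the controls, 24.8, 29.7 and 26.7 with Repsox, 26.5, 20.01 and 34.4 with Vactosertib and 21.5, 19.2 and 20 with A83-01. The treated libraries lay far below the controls and close to each other. The log2 fold changes were -2.40, -2.40 and -2.82 (edgeR adjusted p = 4.51e-08, 7.04e-08 and 4.99e-09). With DMH-1 it had 112, 100 and 151 CPM, which overlapped the controls (log2 fold change -0.23, edgeR adjusted p = 0.475).
Mmp10 had 1.58, 1.37 and 1.36 CPM in the controls and 0.192, 0.0382 and 0 with A83-01 (log2 fold change -4.16, edgeR adjusted p = 0.000127, and -5.92 without A83-01 replicate 1). It was called lower with Repsox (-1.84, edgeR adjusted p = 0.0145) and Vactosertib (-1.49, edgeR adjusted p = 0.0472). The Repsox call was lost without Repsox replicate 2 or 3 (log2 -1.74 and -1.59), and the Vactosertib call when any 1 of the 6 libraries was left out (log2 -1.73 to -1.19). These levels rest on few reads.

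Mmp11 had 110, 121 and 135 CPM in the controls, 40.3, 39.1 and 43.1 with Repsox, 48.5, 48.6 and 48.7 with Vactosertib and 38.4, 45.9 and 37.0 with A83-01, without overlap. The log2 fold changes were -1.58, -1.32 and -1.60 (edgeR adjusted p = 7.6e-09, 8.36e-08 and 3.77e-09). With DMH-1 it moved the other way, to 199, 162 and 188 CPM (log2 fold change 0.59 ± 0.10, edgeR adjusted p = 0.00101), all above the controls. Mmp11 was the member called in opposite directions.

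Mmp19 was lower with Repsox (66.0, 49.1 and 63.5 CPM), Vactosertib (63.2, 77.3 and 68.9) and A83-01 (67.9, 76.6 and 72.1) than in the controls (95.5, 112 and 108), with log2 fold changes of -0.82, -0.58 and -0.54. DMH-1, with 75.9, 76.9 and 76.1 CPM, gave -0.46 (edgeR adjusted p = 0.0179), a call lost without control replicate 2 or 3 or DMH-1 replicate 1 or 2 (log2 -0.46 to -0.41). Mmp14 had 1017, 1057 and 1077 CPM in the controls and was lower with Repsox (823, 736 and 809; log2 fold change -0.42, edgeR adjusted p = 0.00162) and Vactosertib (747, 840 and 827; log2 fold change -0.38, edgeR adjusted p = 0.00411). With A83-01 it had 972, 884 and 864 CPM, all below the controls, and did not pass the test (log2 fold change -0.21, edgeR adjusted p = 0.0665). With DMH-1 it had 1210, 1169 and 1341, all above them (log2 fold change 0.24, edgeR adjusted p = 0.0866).

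Mmp2 had 782, 885 and 912 CPM in the controls and 706 to 1082 in the 12 treated libraries. All libraries with A83-01 (918 to 1011) and DMH-1 (1040 to 1082) lay above the controls, while those with Repsox and Vactosertib overlapped them. The log2 fold changes ran from 0.08 to 0.30, and the lowest treated value was Repsox replicate 2, which stands apart from its group. Mmp23 had 112, 101 and 109 CPM in the controls and 104, 156 and 97.8 with Repsox, the 156 again being replicate 2, and its log2 fold changes ran from 0.16 to 0.25. It had 118 to 137 CPM with Vactosertib and 112.5 to 125.4 with DMH-1, all above the controls, and 107.5 to 134.7 with A83-01, which overlapped them. Mmp9 had 2.6, 3.02 and 3.54 CPM in the controls and 1.48 to 3.37 in the treated libraries (log2 fold changes -0.47 to -0.03). Mmp8 had 8 counts or fewer in each of these libraries.

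**Figure D5:**
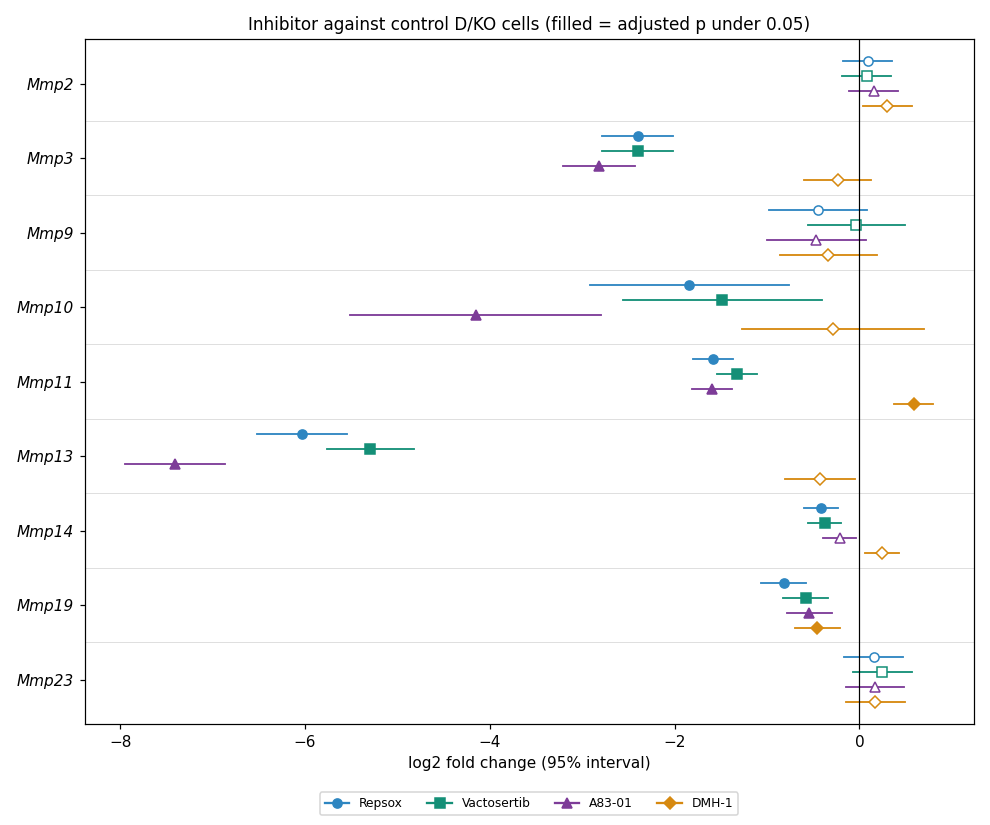
Log2 fold change (horizontal, with 95% interval) of each Mmp gene with Repsox, Vactosertib, A83-01 or DMH-1 against control D/KO cells; filled symbols passed the test. Mmp13 lies between -7.41 and -5.30 with the 3 ALK5 inhibitors and at -0.42 with DMH-1, and Mmp11 lies at 0.59 with DMH-1.

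Compounds given at the same dose were compared directly, in 2 pairs, with p-values adjusted over both. Between Repsox and Vactosertib at 0.1 µM, which share ALK5 as a target while Vactosertib is also directed at ALK2, 1 of the 9 members was lower with Repsox and 0 higher (0.178% of genes in each direction). This was Mmp13, with 2.33 against 3.86 CPM on average (log2 difference -0.74, 95% interval -1.22 to -0.26, edgeR adjusted p = 0.0475). The call was lost without any 1 of the 3 Repsox libraries, Vactosertib replicate 2 or Vactosertib replicate 3 (log2 -0.77 to -0.65). For Mmp3 the difference was 0.00 with an interval from -0.38 to 0.37, for Mmp11 -0.26 (interval -0.47 to -0.05, edgeR adjusted p = 0.134), for Mmp14 -0.04 (interval -0.22 to 0.14) and for Mmp10 -0.35 (interval -1.52 to 0.81). A83-01 and DMH-1, given at 1 µM and directed at ALK5 and ALK2, differed in 5 members, all lower with A83-01 (11% of genes were lower and 9.75% higher). The log2 differences were -6.98 for Mmp13, -3.87 for Mmp10 (-5.63 without A83-01 replicate 1), -2.59 for Mmp3, -2.18 for Mmp11 and -0.46 for Mmp14 (edgeR adjusted p = 2.41e-11, 0.000696, 4.38e-08, 4.27e-10 and 0.00147). Mmp23 (0.00, interval -0.32 to 0.31), Mmp19 (-0.08, interval -0.33 to 0.16), Mmp9 (-0.13, interval -0.66 to 0.40) and Mmp2 (-0.15, interval -0.41 to 0.12) did not pass the test. A83-01 and the other ALK5 inhibitors were given at different doses and are set side by side only.

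Of the partner genes under A83-01, where 16.4% of all genes were higher and 16.2% lower, 2 of 5 inhibitors rose and 1 fell (list median 0.33). Timp2 rose by 0.95 and Timp1 fell by 1.55 on the log2 scale, and Timp4, with 0 counts in the control libraries, reached 2.65 ± 0.286 CPM, at least 53.9-fold higher than 3 counts over the control group allow. Of 10 activation genes 2 rose and 6 fell (list median -0.49). The convertase Pcsk5 fell from 58.9 ± 6.2 to 4.45 ± 0.805 CPM (log2 fold change -3.73, edgeR adjusted p = 1.12e-09). Another convertase, Pcsk6, went the other way (log2 fold change 1.84, edgeR adjusted p = 8.59e-08), and Serpine2 rose by 0.99 on the log2 scale. Of 7 Adamts genes 2 rose and 3 fell (list median -0.05). Adamts4 fell by 2.13 and Adamts9 rose by 1.74. Of 6 other Mmp genes tested, DMH-1, with 5.96% of all genes higher, raised Mmp15, a membrane-type protease (12.6 ± 2.19 to 20.7 ± 1.32 CPM, log2 fold change 0.72, edgeR adjusted p = 0.00526).

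Between genotypes, control D/KO cells exceeded control WT tail tip cells in 4 of the 9 members and lay below them in 2 (21.3% and 18.9% of all genes). Mmp13 had 0.186, 0.0388 and 0.0412 CPM in the WT libraries, 7 counts in all, against 151, 150 and 158 in D/KO (log2 difference 10.65, 95% interval 9.95 to 11.35, edgeR adjusted p = 2.61e-13). The size rests on few WT counts: without WT replicate 1, the library with the most of them, it was 11.74. The chondrocyte and osteoblast markers summed to 81.8 to 93.8 CPM in WT and 29.3 to 35.2 in D/KO libraries, with Sox9 at 78.3 and 29.4 CPM and Col10a1 at 0.996 and 3.02, and their part was not tested. Mmp10 had 0 counts in the 3 WT libraries and 1.58, 1.37 and 1.36 CPM in D/KO, at least 36.8-fold higher than 3 counts over the WT group allow. Mmp3 was higher, with 159, 138 and 132 against 10.4, 10.4 and 12.4 CPM (log2 difference 3.71, edgeR adjusted p = 1.78e-10), and Mmp11 by 0.58. Mmp9 was lower, with 2.6, 3.02 and 3.54 against 19.4, 22.9 and 20.5 CPM (log2 difference -2.77, edgeR adjusted p = 8.68e-08), and so was Mmp23 (log2 difference -0.69). Mmp2 (-0.23), Mmp14 (0.13) and Mmp19 (-0.11) did not pass the test. The macrophage markers summed to 7.95 to 9.47 CPM in these WT libraries, with Ptprc, Adgre1 and Itgam at 0, and to 10.2 to 14.3 in D/KO. The endothelial markers, among them Pecam1 and Cdh5, summed to 57.7 to 75.8 CPM in WT and 240 to 288 in D/KO libraries, and the part of either list in these differences was not tested.
In the reprogramming lines at day 0, a different pair of mice, D/KO cells were higher in 2 and lower in 4 members (22.1% and 21.1%). Mmp13 had 68.9, 68.6 and 95.1 CPM against 16.0, 22.7 and 23.5 (log2 difference 1.90, edgeR adjusted p = 2.42e-10) and Mmp3 72.5, 69.1 and 155 against 22.5, 21.9 and 20.5 (log2 difference 2.19, edgeR adjusted p = 4.89e-09). Mmp9, Mmp23 and Mmp14 were lower (log2 differences -1.81, -0.53 and -0.42). The endothelial markers summed to 512 to 599 CPM in D/KO and 14.5 to 17.2 in WT libraries here, and their part was not tested. Mmp2, lower with a log2 difference of -0.29 (edgeR adjusted p = 0.041), was not called once any 1 of the 6 libraries was left out (log2 -0.32 to -0.25). Mmp11 was 0.30 and not called, but 0.48 and called without D/KO day 0 replicate 3 (edgeR adjusted p = 0.00901).

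Skin fibroblasts differed from tail tip fibroblasts of WT controls in 6 members, 3 higher and 3 lower (18.1% and 16.1% of 15652 genes). Mmp13 had 1.48, 1.36 and 2.02 CPM in skin (log2 difference 4.06, edgeR adjusted p = 1.78e-07, against 7 counts in all in tail tip, and 5.15 without tail tip replicate 1) and Mmp14 1452, 1332 and 1316 against 984, 928 and 1003 (log2 difference 0.49, edgeR adjusted p = 0.000171). Mmp9 had 2.59, 4.59 and 3.98 against 19.4, 22.9 and 20.5 (log2 difference -2.49, edgeR adjusted p = 2.79e-08). Mmp2 (195, 676 and 683 CPM in skin) and Mmp19 (43.9, 83 and 81) were lower, and in both the lowest value was replicate 1, the library that stands apart. Without it the differences were -0.59 in place of -0.98 for Mmp2 and -0.48 in place of -0.73 for Mmp19, and both remained called (edgeR adjusted p = 0.00128 and 0.00357). The call for Mmp10, with 0.313, 0 and 0.178 CPM against 0, was lost without it (edgeR adjusted p = 0.0883), and Mmp3 was then called lower (-0.56, edgeR adjusted p = 0.0354). In a fit of the 2 groups alone, 2 members were called, a count given without the share of all genes called in that fit. Mmp11 (-0.24) and Mmp23 (0.00) did not pass the test. Skeletal muscle markers summed to 108 to 143 CPM in skin and 16.1 to 21.3 in tail tip, with Des at 65 CPM, Myod1 at 0.423 and Myog at 0.87 in skin. The endothelial markers summed to 116 to 209 and 57.7 to 75.8 CPM, and the part of either list was not tested.

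The 3 WT 4F libraries labelled TGFB were not tested against a group, because no group of the table shares their line and age without the label. Their Mmp9 stood at 473, 483 and 549 CPM, 24 times the mean of the WT tail tip controls of the same table, and beside 9.28, 9.02 and 10.5 CPM in the day 0 libraries with the same genotype, sex and age labels, which are in the other table. Mmp9 came next per kilobase there, with 142 ± 11.6 CPM per kb (mean ± s.d., n = 3) after Mmp2 (294 ± 11.5) and Mmp14 (186 ± 3.76). Mmp10, with 11.5, 9.77 and 11.2 CPM, was at its highest over the 20 groups, at least 278-fold above what 3 counts over the WT controls allow. Mmp11 (21.9, 23.6 and 25.2 CPM), Mmp19 (44.5, 42.7 and 47.6) and Mmp23 (50.0, 51.3 and 54.1) lay below every WT tail tip control library, the WT controls meant in this paragraph. Set beside those day 0 libraries, Mmp3 (mean 14.2 against 21.6 CPM) and Mmp13 (7.38 against 20.7) were lower and Mmp14 (1110 against 1081) was near, although all 3 lay above the WT tail tip controls. The macrophage markers summed to 21.0 to 25.0 CPM. Of the 5 neutrophil markers, S100a8, S100a9 and Elane were at 0, Ly6g at 0.213 and Mpo at 0.046 CPM, against Elane alone, at 0.0909, in the WT controls. The fibroblast markers summed to 61360 to 64660 CPM (85400 to 88130 in the WT controls), with Pdgfra at 16.9, Dcn at 19.4 and Lum at 9.55 CPM against 1250, 1750 and 97.9. Skeletal muscle markers summed to 1711 to 2063 CPM, with Acta1 at 1870 and Myod1 at 0, against 16.1 to 21.3 in the WT controls. The endothelial markers summed to 0.968 to 1.83 CPM against 57.7 to 75.8, and the part of these lists in the levels was not tested.

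Over the 20 group means of log2(CPM + 2), centred within each table, Mmp19 and Mmp23 were the most alike pair of members (Pearson's r = 0.902), followed by Mmp14 and Mmp23 (0.779), Mmp9 and Mmp10 (0.731), Mmp14 and Mmp19 (0.73) and Mmp3 and Mmp13 (0.715). Among 14941 genes, the closest to Mmp23 were Ccdc102a (0.952), Zfp354c (0.935) and Cdc26 (0.933), to Mmp19 Lrfn4 (0.915), Grin2d (0.911) and Plat (0.909), to Mmp14 Lpar1 (0.893), Nnmt (0.89) and Postn (0.885), and to Mmp2 Scarf2 (0.867), Fnip1 (0.865) and Zmat3 (0.856). For Mmp13 they were Kcnq1 (0.827), Vash1 (0.82) and Plppr4 (0.809), for Mmp3 Entpd1 (0.84), Crabp1 (0.804) and Rspo4 (0.799), and for Mmp11 Wipf1 (0.863), Tmem74b (0.851) and Epm2a (0.845). Those of Mmp9 (Hsd11b2, Wnt11 and Rfxank, 0.932 to 0.944) and Mmp10 (Slc20a1, Adgrv1 and Senp3, 0.926 to 0.933) share the high value of the TGFB group. The same holds for the pair of Mmp9 and Mmp10, both of which were highest in that group. Groups of an arm share a line, so the points are not independent and the values are a description.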

How the data were processed

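Per the labels and the study's methods, polyA RNA was sequenced in paired-end mode (150 bp), reads were trimmed with Trim Galore and aligned to GRCm39 with HISAT2, and the authors deposited whole-number gene counts from featureCounts (Subread) with nothing normalized. Versions and the strand setting are not given in the sources used here.

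Libraries were normalised by TMM (edgeR 4.0.16 under R 4.3.3). The filterByExpr function (minimum count 10, minimum total 15) kept 15832 genes over 36 reprogramming libraries, 15164 over the 18 inhibitor libraries without WT skin and WT 4F, and 15652 over all 24. The quasi-likelihood F-test of edgeR (two-sided) was fitted with a coefficient for each group, and the Benjamini-Hochberg adjustment ran over all genes of a comparison, or over both same-dose pairs together. The study used DESeq2, here 1.42.0 and an alternative. CPM are scaled by TMM. With 16538374 or more counts a library, the depth gives 1 count a CPM of about 0.06. Folds against a group with 0 counts use 3 counts over that group. Intervals are at 95%. The scripts were tested on simulated data.

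All 10 members were eligible to be named in every comparison. From the lists of other Mmp genes, inhibitors, activation genes and Adamts genes, up to 3 called genes with the largest change were eligible at day 4 with VC, A83-01 and DMH-1, and 1 gene of these lists is not reported here. The members, lists and tests were chosen with earlier results of these data known. Alternatives were DESeq2, its size factors, no expression filter, only the groups compared, a minimum log2 change of 1 in either direction, all 24 libraries, day 0 without VC as the baseline, and each library left out in turn. That baseline was applied to the D/KO minus WT change after seeing the data. Promoter sequences are from RefSeq (GRCm38.p6), where 7 of 10 members matched.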

Additional observations from a re-analysis of the deposited data

Results flagged for a closer look

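These results are listed because the D/KO change from day 0 differed from the WT change by a test of the difference itself, given as D/KO minus WT on the log2 scale. At day 4 without VC they were Mmp14 (-0.74) and Mmp19 (-0.44). At day 2 with VC they were Mmp3 (1.76), Mmp13 (-1.16), Mmp14 (-0.75), Mmp19 (-0.84) and Mmp23 (-1.04). At day 4 with VC they were Mmp2 (-0.43), Mmp3 (3.26), Mmp11 (-0.89), Mmp14 (-0.88), Mmp19 (-0.87) and Mmp23 (-1.28). Against day 0 without VC the Mmp3 difference was 0.25 and not called at day 2 with VC (edgeR adjusted p = 0.664) and 1.75 at day 4 with VC. Genotype, sex, age and line cannot be told apart in these differences.

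In the WT 4F libraries labelled TGFB, which entered no comparison, all 3 values lay above every WT tail tip control library for 5 members. Their means were 502 CPM for Mmp9, 10.8 for Mmp10, 7.38 for Mmp13, 14.2 for Mmp3 and 1110 for Mmp14, and the difference was not tested. Beside the day 0 libraries of the same line, sex and age labels in the other table, the ratios of means were 52.2 for Mmp9, 27.5 for Mmp10, 0.356 for Mmp13, 0.659 for Mmp3 and 1.03 for Mmp14.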

How the results depend on the processing

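No paired analysis was possible because the replicate numbers follow the order of accession and name libraries only. Of 334 recomputed counts of members called, 277 stayed within 1.5 times the reported count. The other changes follow.

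With a minimum log2 change of 1 in either direction, which by construction passes fewer genes, the count in D/KO cells was 0 at day 2, 2 at day 4 and 4 at day 2 with VC, and then 0 at WT day 2, 1 at WT day 4, 2 at WT day 2 with VC and 4 at WT day 4 with VC. For VC it was 3, 2 and 3 at D/KO days 0, 2 and 4, and 4 and 2 at WT days 0 and 2. For the D/KO minus WT change it was 0 at day 4, 3 at day 2 with VC and 2 at day 4 with VC. It was 3 between genotypes at day 0, 0 for DMH-1, 0 for Repsox against Vactosertib and 3 for skin. With no expression filter, and with only the groups compared, WT day 2 gave 3 and WT day 4 gave 5. With only the groups compared, VC at WT day 4 gave 5, Repsox against Vactosertib 0 and skin 2. DESeq2 gave 5 for VC at WT day 4, 1 for the D/KO minus WT change at day 2 and 4 for DMH-1. Its size factors gave 1 for the D/KO minus WT change at day 2 and 0 for Repsox against Vactosertib. All 24 libraries gave 1 for DMH-1 and 0 for Repsox against Vactosertib. The share of all genes called in each fit is not set beside these counts, so a changed count is not a result about the members. The cause was not tested.

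Leaving out 1 library gave 1 to 2 at WT day 2, 3 to 5 for VC at D/KO day 2, 0 to 1 for the D/KO minus WT change at day 2 and 1 to 3 at day 4, 1 to 2 for DMH-1 and 0 to 1 for Repsox against Vactosertib. Of 2997 values of single members, 2770 kept their side of the threshold and, where called, their direction, and 4 called values reversed, all with day 0 without VC as the baseline: Mmp2 at D/KO day 2 with VC (0.49), WT day 2 with VC (0.64) and WT day 4 with VC (0.40), and Mmp14 at WT day 2 with VC (0.15). Values that were not called also changed sign, with that baseline (Mmp10 at D/KO day 4 with VC from -0.82 to 1.26) and without 1 library (Mmp9 at D/KO day 2 from -0.17 to up to 0.12). Depth limits Mmp8 and Mmp10, with few reads a library.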
